A study of Mus musculus with 6 samples.

Results

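C-type lectin receptors are cell surface proteins with which macrophages bind sugars, lipids and other ligands on microbes and on dead or damaged cells. The 10 genes described here were taken by name: Clec7a, Clec4d, Clec4e, Clec4n, Clec5a, Clec10a, Clec12a, Mgl2, Cd209f and Cd209b. They are 10 of the 46983 gene identifiers in the count table, and all 10 were matched by symbol. The RNA sequenced came from bone marrow derived macrophages of C57BL/6 mice, 3 libraries from wild-type (WT) mice and 3 from mice lacking AEG-1 (AEG-1 KO), the protein encoded by Mtdh. AEG-1, also called metadherin, is best known as a protein raised in many tumours. Marrow cells from the femurs of both genotypes were grown for 7 days in 20% L929 conditioned medium, a source of the macrophage growth factor M-CSF, with 10% serum, and were given no treatment. The labels do not describe the knockout allele or say whether it was restricted to a cell type. Nor do they say that replicates are separate animals or cultures, and the p-values therefore reflect only how these libraries differ among themselves, which may be technical.

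Mtdh checked the labels. It was at 259, 254 and 273 CPM (counts scaled to a common library size) in the WT libraries and at 0.333, 0.517 and 0.335 CPM in the AEG-1 KO libraries. Library totals ran from 42548170 to 58947230 counts. Of 18 macrophage markers all 18 passed the filter on low counts, and their summed level was 26170 to 26980 CPM in WT and at 26420 to 26720 CPM in AEG-1 KO. Within these sums 4 of the 18 rose and 2 fell. Marco fell from 3477 ± 179 to 2257 ± 45.4 CPM, while Csf1r rose from 1941 ± 64.8 to 2526 ± 39.7 CPM, Mertk from 125 ± 2.34 to 165 ± 5.49 CPM and Cd14 from 251 ± 9.35 to 319 ± 2.30 CPM (SD, n = 3; edgeR adjusted p = 0.000149, 0.000919, 0.00101 and 0.0016). Csf1r overlaps Hmgxb3 on the other strand, which leaves its value uncertain. Across all genes 1023 of 16115 tested genes were called at an adjusted p under 0.05 by the edgeR quasi-likelihood test, the source of every adjusted p here, 533 higher and 490 lower in AEG-1 KO.

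The receptors differ in the signal they pass on. Dectin-1 (Clec7a), the receptor for fungal beta-glucan, carries its own activating motif and recruits the kinase Syk. Dectin-2 (Clec4n), which binds mannans, and Mincle (Clec4e) and MCL (Clec4d), which bind mycobacterial cord factor, signal through the Fc receptor gamma chain (Fcer1g). MDL-1 (Clec5a) signals through DAP12 (Tyrobp) and DAP10 (Hcst). Syk then leads to the CARD9, BCL10 and MALT1 complex and to NF-kB. MICL (Clec12a) is inhibitory and recruits phosphatases. The galactose-type lectins MGL1 (Clec10a) and MGL2 (Mgl2) and the mouse relatives of human DC-SIGN, among them Cd209b (SIGNR1) and Cd209f, bind and take up glycosylated ligands.

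The receptor genes were expressed at widely different levels, and their order was compared per kilobase of annotated exon. That length joins the exons of all annotated transcripts of a gene, and the transcripts present were not determined. The order of genes with close values therefore depends on the annotation too, which the spread of the libraries does not cover. In WT libraries Clec4d was highest, at 495 ± 36.8 CPM per kb (SD, n = 3), followed by Clec12a at 77.0 ± 4.29. Clec4e, Clec7a and Clec4n were close together at 30.1 ± 2.18, 29.6 ± 1.77 and 28.2 ± 1.94 CPM per kb. Clec5a followed at 3.87 ± 0.316, then Cd209f at 1.299 ± 0.135, Clec10a at 1.15 ± 0.122 and Mgl2 at 0.454 ± 0.078. The WT ranges of Clec4e and Clec7a overlapped, as did those of Clec7a and Clec4n and of Cd209f and Clec10a, so these neighbours did not differ beyond their spread. In AEG-1 KO libraries Clec4n had rank 3 at 34.1 ± 0.372 CPM per kb, ahead of Clec7a at 32.2 ± 1.17 and Clec4e at 28.6 ± 1.94, and Clec10a stood above Cd209f, at 1.63 ± 0.192 against 0.606 ± 0.124. The ranges of these AEG-1 KO neighbours did not overlap, while those of Cd209f and Mgl2, next to each other at 0.606 and 0.596 CPM per kb, did. The other genes stood in the same order as in WT.

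**Figure D1:**
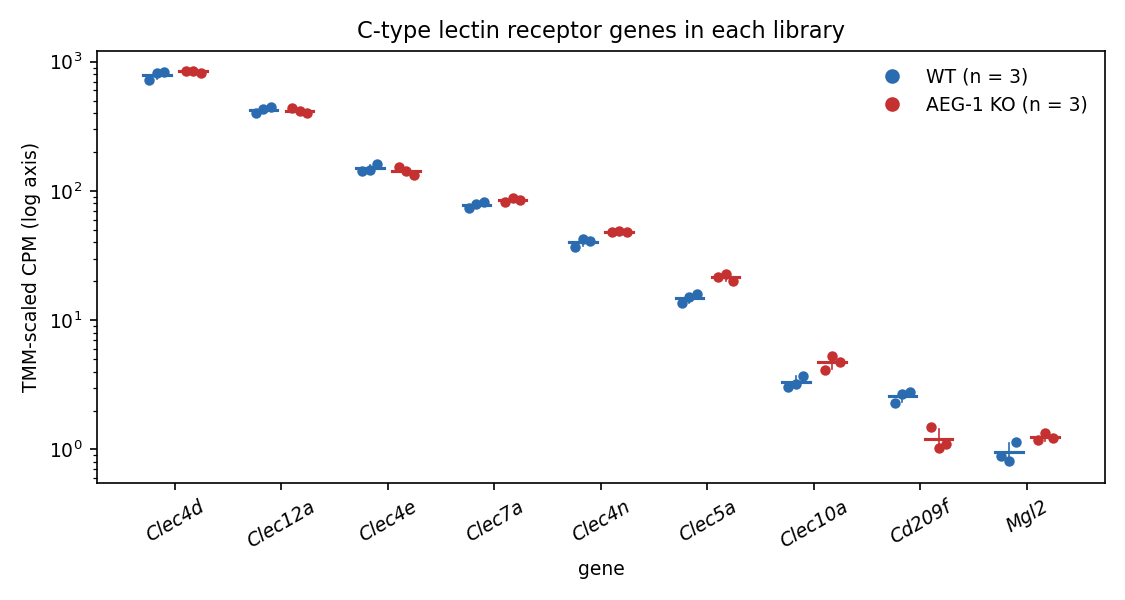
TMM-scaled CPM (log axis) of the 9 receptor genes with counts, with a point for each library, a horizontal bar at the mean and a vertical bar for the SD (n = 3 per genotype). Clec4d is highest at 724 to 852.5 CPM, and Cd209f is the only gene here with all 3 AEG-1 KO points below all 3 WT points.

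Cd209b had no count in any of the 6 libraries. A count of 0 allows up to 3 counts, or 0.0513 to 0.0704 CPM depending on the library, and this limit covers counting error only. SIGNR1, its product, is known from marginal zone and peritoneal macrophages. The gene was not tested, which left 9 of the 10 receptor genes in the fit.

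Of these 9 genes, 3 rose in AEG-1 KO (Clec5a, Clec10a and Clec4n), 1 fell (Cd209f) and 5 did not pass (Mgl2, Clec7a, Clec4d, Clec4e and Clec12a). Over all tested genes 6.35% were called, 3.31% higher and 3.04% lower. The median log2 ratio of the 9 genes was 0.12, beside 0.01 over all tested genes. In 5 of the 9 the libraries of the genotypes did not overlap (the 4 called genes and Mgl2), which was the case for 26.8% of all tested genes. The count of called receptors was 2 without WT replicate 1, without KO replicate 2 or without KO replicate 3, and then held Clec5a and Cd209f. In these bulk libraries fewer cells of a type and less RNA per cell cannot be told apart.

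**Figure D2:**
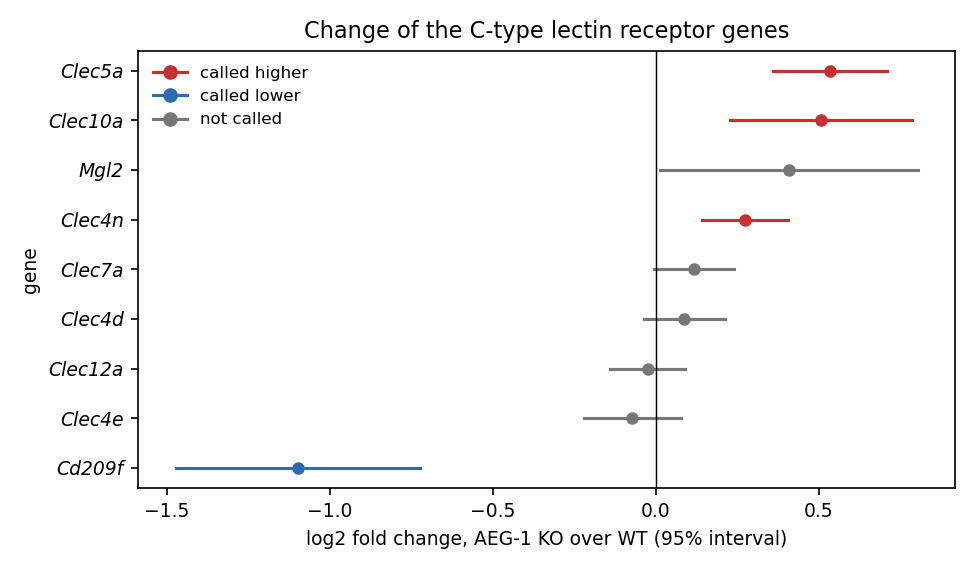
Log2 ratio of AEG-1 KO over WT for the 9 tested receptor genes, with 95% intervals from the edgeR fit (3 libraries per genotype). Clec5a, Clec10a and Clec4n lie to the right of 0 and were called, Cd209f lies at -1.10, and the intervals of Clec7a, Clec4d, Clec12a and Clec4e include 0.

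Clec5a had the largest change among the activating receptors. The gene (ENSMUSG00000029915) lies at chr6:40574894-40585821 on the minus strand (GRCm38). It was at 13.6, 15.0 and 16.0 CPM in WT and at 21.6, 22.9 and 20.2 CPM in AEG-1 KO. Every AEG-1 KO library was above every WT library. The means were 14.9 ± 1.21 and 21.6 ± 1.37 CPM (SD, n = 3), a rise of 1.45-fold (log2 ratio of AEG-1 KO over WT 0.53 ± 0.08 SE, 95% interval 0.36 to 0.71, adjusted p = 0.00438). At least 608 reads were counted per library.

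The promoter of Clec5a is shown because it is the only promoter given here for a receptor gene that rose. RefSeq promoters (GRCm38.p6, 250 bases before to 50 after the start) were matched for 8 of the 10 genes, Clec7a, Clec4d, Clec4e, Clec5a, Clec12a, Mgl2, Cd209f and Cd209b. Capitals mark the PU.1 core GAGGAA and the TATA box TATAAA on either strand, so that TTCCTC and TTTATA are their reverse complements. The stretch is chr6:40585756-40586055, minus strand.
Clec5a: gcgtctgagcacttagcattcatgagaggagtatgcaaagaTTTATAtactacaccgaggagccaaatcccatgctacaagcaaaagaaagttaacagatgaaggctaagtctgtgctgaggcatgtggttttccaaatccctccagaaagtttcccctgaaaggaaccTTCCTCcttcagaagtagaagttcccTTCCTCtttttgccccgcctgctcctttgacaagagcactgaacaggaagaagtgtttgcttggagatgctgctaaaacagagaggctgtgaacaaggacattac
PU.1 is a transcription factor of the myeloid lineage. Its core stood 81 and 55 bases before the start of Clec5a. It was found in 6 of the 8 promoters (not in those of Cd209f and Cd209b) and in 28.3% of all 32851 promoters of that length, and of the 6 genes Clec5a rose and the other 5 did not pass the test. An AP-1 motif (TGANTCA) was found in Clec12a and Cd209f and in 7.81% of all promoters. A C/EBP motif (TTGCNNAA) was found in Clec4e, Clec12a and Cd209b and in 10.8% of all. The STAT motif TTCNNNGAA (8.3% of all) and the E-box CACGTG (7.15% of all) were not among the letters of these 8 windows. These matches, sought on both strands, are descriptions of the letters and not of binding.

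The receptors that signal through the Fc receptor gamma chain, Clec4n, Clec4d and Clec4e, lie side by side on chromosome 6, and of these Clec4n rose. Clec4n (ENSMUSG00000023349, chr6:123229843-123247021, plus strand) was at 36.9, 42.3 and 40.8 CPM in WT and at 48.5, 48.9 and 47.8 CPM in AEG-1 KO. The genotypes did not overlap, and the AEG-1 KO libraries lay closer together than the WT libraries. The means were 40.0 ± 2.76 and 48.4 ± 0.528 CPM (SD, n = 3), a rise of 1.21-fold (log2 ratio 0.27 ± 0.06 SE, 95% interval 0.14 to 0.40, adjusted p = 0.0246). The call was lost without WT replicate 1 and without each of KO replicates 1, 2 and 3 (adjusted p = 0.0547, 0.0785, 0.126 and 0.0716).

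Clec4d and Clec4e did not pass the test. Clec4d (ENSMUSG00000030144, chr6:123262111-123275265, plus strand) was at 724, 814 and 834.5 CPM in WT and at 847, 852.5 and 823 CPM in AEG-1 KO (log2 ratio 0.09 ± 0.06 SE, 95% interval -0.04 to 0.21, adjusted p = 0.399). The lowest AEG-1 KO library lay within the WT range. Clec4e (ENSMUSG00000030142, chr6:123281789-123289870, minus strand) was at 142, 144 and 162 CPM in WT and at 152, 141.5 and 133 CPM in AEG-1 KO (log2 ratio -0.07 ± 0.07 SE, 95% interval -0.22 to 0.08, adjusted p = 0.593). The ranges of Clec4e overlapped as well, with KO replicate 3 the lowest library. The differences between the 3 genes in their response were not tested.

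MCL and Mincle are known to assemble with each other, so the ratio of the reads of their genes is given. It is not corrected for annotated exon length, 1599 nucleotides for Clec4d and 4965 for Clec4e, and is not a ratio of transcripts. Reads of Clec4d over those of Clec4e, both in CPM, came to 5.1, 5.65 and 5.16 in WT and 5.58, 6.02 and 6.21 in AEG-1 KO, which overlapped. Reads of Clec4n over those of Clec4d came to 0.051, 0.0519 and 0.0489 in WT and 0.0572, 0.0573 and 0.0581 in AEG-1 KO, which did not overlap.

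The other genes of the same chromosome 6 cluster lie upstream of Clec4n and had negative values; they were picked after their values were seen. Of Clec4a1, Clec4a3, Clec4a4, Clec4b1 and Clec4a2, each had all 3 AEG-1 KO libraries below all 3 WT libraries, as had 12.9% of all tested genes, and 1 was called. Clec4a2, which encodes the inhibitory receptor DCIR, was at 207, 206 and 211 CPM in WT and at 189, 181 and 183 CPM in AEG-1 KO (log2 ratio -0.18 ± 0.04 SE, adjusted p = 0.0305). That call was lost without any one of the 6 libraries (adjusted p = 0.0508 to 0.159), and Clec4a2 shares near-identical stretches with Clec4a4 and Clec4b1, so these 3 values are uncertain and are not separate observations. The log2 ratios of the other 4 ran from -0.27 to -0.10 (adjusted p = 0.0572 to 0.230). Clec4b2 was too low to test.

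**Figure D3:**
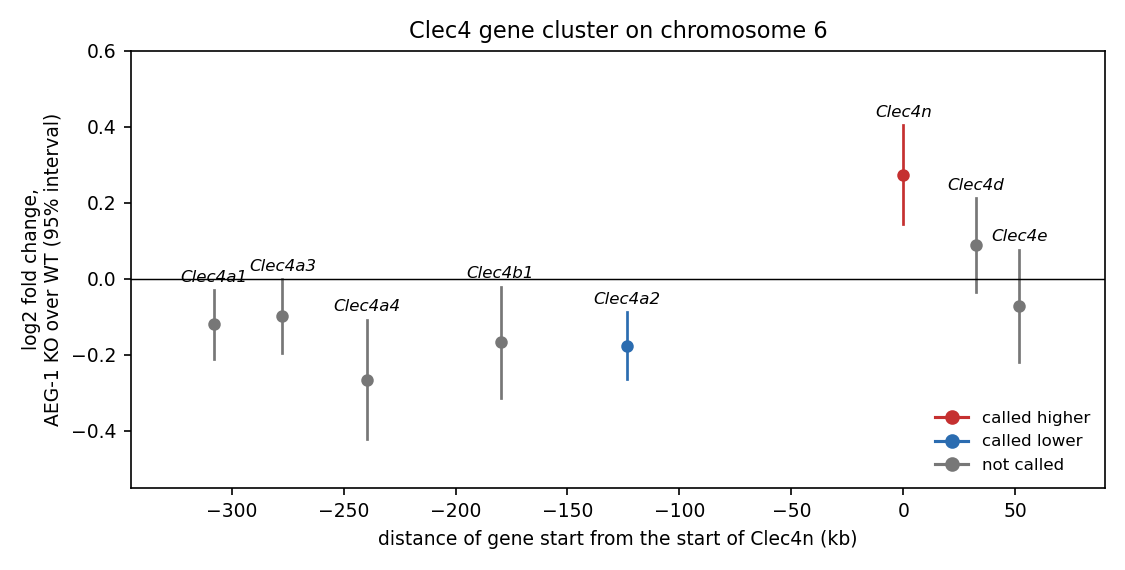
Log2 ratio of AEG-1 KO over WT with 95% intervals for the tested genes of the chromosome 6 Clec4 cluster, by the distance of their start from the start of Clec4n in kb. The 5 genes upstream of Clec4n lie between -0.27 and -0.10, Clec4n lies at 0.27, and Clec4d and Clec4e have intervals that include 0.

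Clec7a and Clec12a lie further along chromosome 6, and neither passed the test. Clec7a (ENSMUSG00000079293, chr6:129461591-129472779, minus strand, annotated in GENCODE M21 as a polymorphic pseudogene) was at 73.3, 78.7 and 82.6 CPM in WT and at 81.6, 87.8 and 85.1 CPM in AEG-1 KO. The ranges overlapped in 1 library of each genotype (log2 ratio 0.12 ± 0.06 SE, 95% interval -0.01 to 0.24, adjusted p = 0.255). Clec12a (ENSMUSG00000053063, chr6:129342691-129365303, plus strand) was at 399.5, 432 and 446 CPM in WT and at 435, 416 and 404 CPM in AEG-1 KO. The AEG-1 KO libraries of this inhibitory receptor all lay inside the WT range (log2 ratio -0.02 ± 0.05 SE, 95% interval -0.14 to 0.09, adjusted p = 0.837). Its transcripts share stretches of at least 95% identity over at least 100 nucleotides with 14 other genes, the closest being Trim24 at 96.0% over 101 nucleotides.

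The galactose-type lectins Clec10a and Mgl2, neighbours on chromosome 11, were both low, and their values are uncertain because the transcripts resemble each other. They were 96.4% identical over 727 nucleotides. Clec10a (ENSMUSG00000000318, chr11:70156197-70170834, plus strand) was at 3.04, 3.21 and 3.72 CPM in WT and at 4.15, 5.26 and 4.75 CPM in AEG-1 KO, or 136 to 188 reads against 187 to 224. The groups did not overlap. The means were 3.33 ± 0.354 and 4.72 ± 0.556 CPM (SD, n = 3), a rise of 1.42-fold (log2 ratio 0.51 ± 0.12 SE, 95% interval 0.23 to 0.79, adjusted p = 0.0445). The call was lost without WT replicate 1, WT replicate 2, KO replicate 2 or KO replicate 3 (adjusted p = 0.0922, 0.163, 0.185 and 0.111).

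Mgl2 (ENSMUSG00000040950, chr11:70130329-70137550, plus strand) was at 0.895, 0.820 and 1.13 CPM in WT and at 1.18, 1.34 and 1.23 CPM in AEG-1 KO, from 40 to 57 reads per library. Its genotypes did not overlap, but it did not pass the test (log2 ratio 0.41 ± 0.18 SE, 95% interval 0.01 to 0.80, adjusted p = 0.215). Clec10a over Mgl2, in CPM, came to 3.4, 3.92 and 3.29 in WT and 3.53, 3.93 and 3.87 in AEG-1 KO, which overlapped. The 2 coding sequences, 927 and 1146 nucleotides long, were identical in 73.2% of 1146 aligned columns. They share a run of 183 identical nucleotides, in which no base tells the genes apart. Shown are the first 150 bases aligned without a gap, from base 62 of the coding sequence of Clec10a. Reads from these bases can be placed on either gene only through 5 differing bases, in capitals.
Clec10a: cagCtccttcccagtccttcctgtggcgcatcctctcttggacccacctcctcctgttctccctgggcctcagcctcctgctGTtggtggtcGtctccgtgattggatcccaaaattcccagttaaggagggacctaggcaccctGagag
Mgl2: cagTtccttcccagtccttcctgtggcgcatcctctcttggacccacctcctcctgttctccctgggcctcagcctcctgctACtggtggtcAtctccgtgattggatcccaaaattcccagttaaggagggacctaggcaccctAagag
When reads of both genes were summed, a choice made after the data were seen, the sum was 3.94, 4.03 and 4.86 CPM in WT and at 5.33, 6.60 and 5.98 CPM in AEG-1 KO. The sum rose (log2 ratio 0.48 ± 0.12 SE, 95% interval 0.22 to 0.75, adjusted p = 0.0440).

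Cd209f had the largest change among the receptors, and the only fall. The gene (ENSMUSG00000051906, chr8:4102787-4105835, minus strand) was at 2.28, 2.67 and 2.80 CPM in WT and at 1.49, 1.03 and 1.09 CPM in AEG-1 KO, or 102 to 156 reads against 44 to 67. The groups were well apart, with KO replicate 1 above the other two of its genotype. The means were 2.58 ± 0.268 and 1.205 ± 0.246 CPM (SD, n = 3), and the level in AEG-1 KO was 0.467 of that in WT (log2 ratio -1.10 ± 0.17 SE, 95% interval -1.47 to -0.72, adjusted p = 0.0054). The call was kept without each library in turn (adjusted p = 0.00484 to 0.0324).

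Cd209g, the neighbouring gene (ENSMUSG00000079168, chr8:4134098-4137707, plus strand), fell by nearly the same amount, and the split of reads between these genes is uncertain. Cd209g was at 2.22, 2.82 and 2.54 CPM in WT and at 1.07, 1.503 and 1.18 CPM in AEG-1 KO (log2 ratio -1.03 ± 0.17 SE, adjusted p = 0.00714). The transcripts of Cd209f and Cd209g are 99.6% identical over 503 nucleotides. Their coding sequences, 825 and 585 nucleotides long, share a run of 177 identical nucleotides, of which 150 bases from base 184 of the coding sequence of Cd209f are shown. No base in it tells the genes apart, so none is in capitals.
Cd209f and Cd209g: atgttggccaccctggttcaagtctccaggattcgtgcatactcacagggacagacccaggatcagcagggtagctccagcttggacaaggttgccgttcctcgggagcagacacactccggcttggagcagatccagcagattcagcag
Cd209f over Cd209g, in CPM, came to 1.03, 0.945 and 1.1 in WT and 1.4, 0.687 and 0.925 in AEG-1 KO, so the share given to each gene varied most among the AEG-1 KO libraries. The sum of both genes was 4.50, 5.49 and 5.34 CPM in WT and at 2.55, 2.54 and 2.28 CPM in AEG-1 KO. This sum, also chosen after the data were seen, fell, and its AEG-1 KO libraries lay closer together than those of either gene (5.11 ± 0.534 to 2.45 ± 0.155 CPM, log2 ratio -1.06 ± 0.12 SE, 95% interval -1.33 to -0.80, adjusted p = 0.00109).

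The likeness of this pair extends into the promoters, which are shown because the values of both genes fell. As the split of reads between the genes is uncertain, their falls are not separate observations. Whether the promoters have a part in them was not tested. Capitals mark an AP-1 motif (TGAGTCA, a form of TGANTCA) and a TATA box (TATAAA). The Cd209f promoter is chr8:4105715-4106014 on the minus strand and that of Cd209g is chr8:4134486-4134785 on the plus strand (RefSeq, GRCm38.p6).
Cd209f: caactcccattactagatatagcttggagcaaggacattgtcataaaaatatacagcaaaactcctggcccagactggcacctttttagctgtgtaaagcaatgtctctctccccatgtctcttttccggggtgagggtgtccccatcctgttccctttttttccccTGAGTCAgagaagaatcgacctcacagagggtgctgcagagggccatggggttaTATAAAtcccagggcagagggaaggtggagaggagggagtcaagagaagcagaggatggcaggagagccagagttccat
Cd209g: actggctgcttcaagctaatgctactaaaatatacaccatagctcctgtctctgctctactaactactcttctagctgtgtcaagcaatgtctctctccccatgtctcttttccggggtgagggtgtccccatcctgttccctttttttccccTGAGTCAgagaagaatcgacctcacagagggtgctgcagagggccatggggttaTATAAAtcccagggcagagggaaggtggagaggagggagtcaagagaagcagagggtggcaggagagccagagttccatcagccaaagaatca
Of 319 aligned columns 258 were identical (80.9%), with a run of 180 identical bases that holds both motifs. The AP-1 motif stood 83 bases before the RefSeq start of Cd209f and 97 before that of Cd209g, and the TATA box 29 and 43 bases before. By the same alignment the promoters of the neighbours Clec4d and Clec4e were 45.9% identical, with no run over 6 bases. The TATA box letters were in 4 of the 8 promoters, Clec5a, Clec4e, Clec7a and Cd209f, and in 13.6% of all promoters. In Clec4e, as in Cd209f, they stood 29 bases before the start. In Clec5a they stood 209 bases before it and in Clec7a 42 bases after it, both as the reverse complement TTTATA.

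Beyond the 10 receptors, 61 other genes with a C-type lectin domain were listed and 27 could be tested. Of these 4 rose, 4 fell and 19 did not pass, with a median log2 ratio of 0.05. Those that rose were Mrc1, Cd93, Clec2i and Colec12. Mrc1, the macrophage mannose receptor, went from 80.3 ± 1.92 to 108 ± 4.78 CPM (SD, n = 3; log2 ratio 0.42 ± 0.05 SE, adjusted p = 0.00117). Cd93, a receptor linked to clearance of dying cells, went from 490 ± 1.55 to 615 ± 5.60 CPM (log2 ratio 0.33 ± 0.04 SE, adjusted p = 0.000992). Clec2i and Colec12 had log2 ratios of 0.26 and 0.26 (adjusted p = 0.0322 and 0.0480), and each lost its call in at least 5 of the 6 fits that left out a library (adjusted p up to 0.166 and 0.191).

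Those that fell were Cd209g, Clec4a2, Clec2g and Cd72. Clec2g fell from 4.75 ± 0.436 to 2.83 ± 0.277 CPM (adjusted p = 0.00671). Cd72, an inhibitory receptor best known on B cells, fell from 632 ± 8.17 to 516 ± 34.6 CPM (adjusted p = 0.00997), a call lost without WT replicate 2 or KO replicate 2 (adjusted p = 0.0507 and 0.0642). Cd72 overlaps Tesk1 on the other strand, and Cd93, Clec2g, Clec2i and Colec12 share near-identical stretches with other genes (Colec12 with 202), so these 5 values are uncertain. Among the 61 genes 12 had no count in any library, Cd209d and Cd209e among them.

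The adaptors of the activating receptors differed in their values. Fcer1g, the chain used by Clec4n, Clec4d and Clec4e, was at 719.5, 773 and 706.5 CPM in WT and at 612, 564 and 639 CPM in AEG-1 KO. The groups did not overlap, and Fcer1g fell (log2 ratio -0.28 ± 0.06 SE, 95% interval -0.40 to -0.15, adjusted p = 0.0197). Its call was lost without WT replicate 2, KO replicate 1 or KO replicate 2 (adjusted p = 0.0883, 0.0579 and 0.0762). Tyrobp, the main adaptor of Clec5a, was at 823, 906 and 811 CPM in WT and at 817, 780 and 894 CPM in AEG-1 KO, which overlapped (log2 ratio -0.03 ± 0.06 SE, 95% interval -0.17 to 0.11, adjusted p = 0.845). Hcst was at 5.34 ± 0.152 and 5.60 ± 0.367 CPM (SD, n = 3; adjusted p = 0.713).

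Of 49 genes of the adaptors and the Syk and CARD9 pathway, all tested, 1 rose, 6 fell and 42 did not pass, with a median log2 ratio of -0.01. The 1 that rose was Vav3 (54.5 ± 2.23 to 67.8 ± 1.79 CPM, log2 ratio 0.31, adjusted p = 0.00615). Vav1, the exchange factor related to Vav3, fell from 714 ± 1.39 to 612 ± 20.2 CPM (log2 ratio -0.22, adjusted p = 0.0107). The Vav3 call was lost without KO replicate 2 and the Vav1 call without that library or WT replicate 2 (adjusted p = 0.0534, 0.0641 and 0.0529). Syk itself was at 1382 ± 9.80 CPM in WT and at 1270 ± 38.0 CPM in AEG-1 KO, with groups that did not overlap, and did not pass (log2 ratio -0.12 ± 0.04 SE, adjusted p = 0.102). Card9, Bcl10 and Malt1 had log2 ratios of -0.02, 0.05 and 0.19 and did not pass (adjusted p = 0.903, 0.566 and 0.0696), and Card9 and Malt1 overlap or share stretches with other genes.

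**Figure D4:**
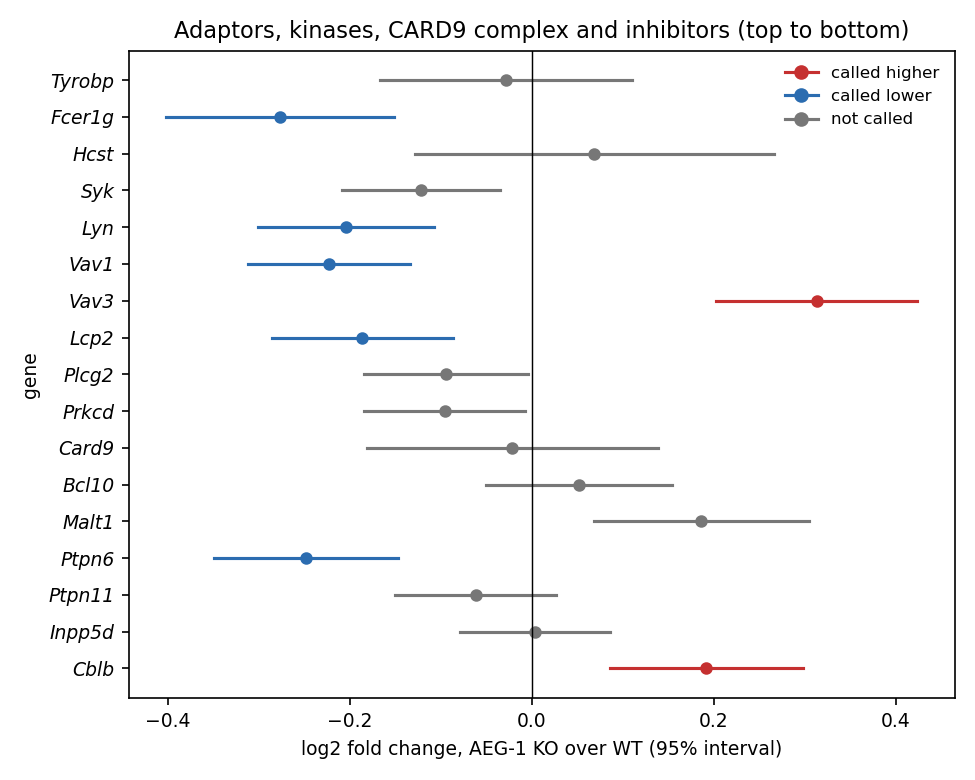
Log2 ratio of AEG-1 KO over WT with 95% intervals for adaptors, kinases, the CARD9 complex and inhibitors of C-type lectin signalling. Fcer1g lies at -0.28, Vav3 lies at 0.31, and the intervals of Tyrobp, Hcst, Card9, Bcl10 and Inpp5d include 0.

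Of 17 tested negative regulators 1 rose, 2 fell and 14 did not pass. The phosphatase SHP-1 (Ptpn6), which inhibitory receptors such as MICL recruit, fell from 544 ± 23.6 to 458 ± 12.8 CPM (SD, n = 3; log2 ratio -0.25 ± 0.04 SE, adjusted p = 0.0122). That call was lost without WT replicate 2 or KO replicate 2 (adjusted p = 0.0591 and 0.0707), and Ptpn6 overlaps Gm20531 on the other strand. Siglece, an inhibitory sialic acid receptor, fell from 335 ± 8.26 to 243 ± 15.9 CPM (log2 ratio -0.47 ± 0.05 SE, adjusted p = 0.00114). Cblb, a ubiquitin ligase, rose by a log2 ratio of 0.19 (adjusted p = 0.0453), a call lost without any one of the libraries (adjusted p = 0.0517 to 0.192). The phosphatase SHIP-1 (Inpp5d) was at 531 ± 10.0 and 532 ± 3.72 CPM (adjusted p = 0.974).

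No receptor ligand was added to these cells, so genes known to respond to ligation were read at rest. Of 25 listed, 22 were tested, 3 rose, 4 fell and 15 did not pass, with a median log2 ratio of 0.02. The 25 genes summed to 1267 to 1298 CPM in WT and to 1018 to 1173 CPM in AEG-1 KO, which did not overlap. Without the most abundant gene the sums were 907 to 924 CPM and 738 to 846 CPM. Nlrp3, the inflammasome sensor, rose from 48.2 ± 2.42 to 66.9 ± 5.15 CPM (adjusted p = 0.00343). The cytokine gene Il10 and the chemokine genes Ccl3 and Ccl4 fell, with log2 ratios of -0.64, -0.41 and -0.39 (adjusted p = 0.00169, 0.00625 and 0.00465). Of 17 tested genes of interleukin-4 response and alternative activation, a state in which Clec10a, Mgl2 and Mrc1 are known to be raised, 3 rose, 0 fell and 14 did not pass, with a median log2 ratio of 0.04. At an unadjusted p under 0.05 edgeR had 3 lower, and DESeq2 called 1 lower and limma-voom 0. The genes that rose were Mrc1, Chil3 (71.5 ± 7.69 to 98.6 ± 5.001 CPM, adjusted p = 0.00719) and Fn1 (5.45 ± 1.14 to 8.13 ± 0.787 CPM, adjusted p = 0.0428). Mrc1 is also counted among the other C-type lectin domain genes, and Chil3 among the monocyte and progenitor markers. Their calls are therefore not separate between these lists. The Fn1 call was lost without each library except WT replicate 3 (adjusted p up to 0.161), and Fn1 and Chil3 share near-identical stretches with other genes.

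Several of the receptors are also known from other myeloid cells, and markers of these cells differed between the genotypes. Summed neutrophil markers were at 523 to 529 CPM in WT and at 570 to 613 CPM in AEG-1 KO. Of the 19 tested 6 rose and 2 fell, among them Ngp (23.0 ± 1.92 to 36.1 ± 2.70 CPM) and Mmp9 (51.0 ± 3.91 to 38.0 ± 1.53 CPM; adjusted p = 0.0016 and 0.00552). Summed monocyte and progenitor markers were at 361 to 378 CPM in WT and at 433 to 444 CPM in AEG-1 KO, and 5 of 17 tested rose and 0 fell by edgeR, DESeq2 or limma-voom (1 lower at an unadjusted edgeR p under 0.05). Ccr2, the monocyte chemokine receptor, was at 12.8 ± 0.687 and 20.4 ± 0.385 CPM (adjusted p = 0.000493). Summed dendritic cell markers were at 2822 to 3020 CPM and 3110 to 3270 CPM, most of it from Sirpa, and 3 of 18 tested rose and 1 fell. Without Sirpa the dendritic cell sums overlapped, at 485 to 597.5 CPM in WT against 521 to 613 CPM in AEG-1 KO. None of the genes in these 3 lists was at 0 in every library. H2-Eb1, an MHC class II gene, was at 1.69 ± 0.184 and 3.08 ± 0.394 CPM (adjusted p = 0.00846). Taken over all genes of each list, these 3 sums moved in the same direction as Clec5a, Clec4n and Clec10a and opposite to Cd209f. Single genes of the lists went both ways. The part of these lists in the results was not tested.

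The remaining marker lists were at lower summed levels. Lymphocyte markers, of which 7 of 22 were tested, summed to 48.6 to 52.3 CPM in WT and at 49.0 to 55.4 CPM in AEG-1 KO, with Gzma and Igll1 at 0, and 1 rose. Mast cell, basophil and eosinophil markers summed to 8.51 to 8.97 and 9.46 to 11.2 CPM, which did not overlap, with Mcpt4, Mcpt8 and Tpsb2 at 0. Of 4 tested by edgeR 0 were called (1 higher at an unadjusted p under 0.05, and 1 called higher by DESeq2). Fibroblast, stromal and endothelial markers summed to 93.6 to 98.8 and 91.2 to 95.02 CPM, most of it from Pecam1, an endothelial adhesion molecule that myeloid cells also carry. Of 17 tested 8 rose and 1 fell, and the median log2 ratio of 0.76 was the largest of these marker lists. Pecam1 fell from 74.8 ± 2.08 to 60.1 ± 1.13 CPM, a value left uncertain by near-identical stretches shared with 125 other genes. The other genes of the list summed to 21.0 to 23.9 CPM in WT against 31.45 to 33.7 CPM in AEG-1 KO. Among them the collagen gene Col1a2 rose from 1.24 ± 0.0889 to 2.37 ± 0.176 CPM (SD, n = 3; edgeR adjusted p = 0.00364 for Pecam1 and 0.00412 for Col1a2). The part of these 3 lists in the results was not tested either.

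Within WT, libraries differed from each other in the same way for nearly every receptor. WT replicate 1 was the lowest WT library in 8 of the 9 tested receptor genes, as it was in 34.9% of all tested genes. WT replicate 3 was the highest in 8 of 9, as in 36.1% of all tested genes. Cd209f and Clec5a, whose groups were far apart, and Clec12a and Clec7a, whose groups overlapped, shared this order. In AEG-1 KO no library held such a place for more than 6 of the 9 genes.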

How the data were processed

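RNA-seq libraries were prepared from total RNA with a TruSeq kit, per the labels' protocols. The deposited table gives each library's raw read counts by Ensembl gene, per the file headers. The submitters' processing notes name, without roles or order, edgeR 3.18.1, featureCounts 1.4.6-p4 from Subread, cutadapt 1.9 and FastQC 0.11.2, with GRCm38 (mm10). How strand and multiply matching reads were handled is not given in the sources used here, which leaves genes that overlap or share near-identical stretches uncertain.

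Libraries were grouped by genotype, 3 against 3. Low genes were removed with filterByExpr (minimum count 10). TMM scaling was followed by edgeR 4.0.16's quasi-likelihood test (R 4.3.3) of genotype alone. Benjamini-Hochberg adjustment covered all 16115 tested genes, with calls at 0.05. A standard error is the size of the log2 ratio divided by the root of its F statistic. On simulated counts for 15961 genes this test found 98% of genes altered by 1 on the log2 scale and 70% of those altered by 0.5. Of its 183 calls 15 were false. The altered genes were drawn only from those with a mean of at least 1 CPM, so these rates do not cover lower genes. GENCODE M21 gave names, positions and exon lengths for 46488 of the 46983 identifiers. Near-identical stretches (at least 95% over at least 100 nucleotides) were sought with BLAST+ 2.17.0. Promoters came from RefSeq (GRCm38.p6). Replicates differed by more than sampling noise (chi-square per gene 5.21 to 17.8).

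The genes named were Mtdh, the 10 receptors, Fcer1g, Tyrobp, Hcst, Syk, Card9, Bcl10, Malt1, Ptpn6 and Inpp5d, up to 8 called genes of the other C-type lectin domain list, and of each further list up to 4 called genes with the smallest p or, where none was called, 2. Sirpa, the other genes of the chromosome 6 cluster, and Plcg2, Prkcd, Lyn, Lcp2 and Ptpn11 in a plot, were chosen after values were seen. A gene that this rule takes is not reported here. The receptors and lists were chosen with earlier results of these data known. Alternatives covered scaling, filters, tests, thresholds, a replicate block, gene length and GC trends and leaving out each library.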

Additional observations from a re-analysis of the deposited data

How the results depend on the processing

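The limits are 3 libraries per genotype, only 40 to 224 reads per library for Cd209f, Mgl2 and Clec10a, and unstated handling of reads shared by near-identical genes. Beside the 1023 genes called, 393 passed an adjusted p under 0.01 and 290 passed when a log2 fold change of at least 0.5 in size was also asked; of the 4 receptors called, 2 (Clec5a and Cd209f) passed the first. RLE, upper-quartile or no scaling factors, no filter, at least 1 CPM in at least 3 libraries, limma-voom (limma 3.58.1), DESeq2 1.42.0, the robust edgeR fit and removal of a gene length and GC trend (mgcv 1.9.3) each called 4 receptors and 959 to 1287 genes. Removing that trend from each library, chosen after seeing the data, called 2487 genes (1055 higher and 1432 lower) and 5 receptors, adding Clec4e (log2 fold change -0.13, edgeR adjusted p = 0.0461). With a replicate block 227 genes and 1 receptor (Clec5a, edgeR adjusted p = 0.0499) were called, with a block and the trend removed 222 genes and 0 receptors (edgeR; 4 at an unadjusted p under 0.05). Cd209f had an edgeR adjusted p of 0.0549 and 0.0607 in these block fits. Same-numbered libraries did not deviate together (correlations -0.274, -0.173 and -0.251), so the numbers were not taken to pair the samples, and no sample correlated best with its own number. Leaving out 1 library at a time called 380 to 1092 genes and 2 to 4 receptors. Of the 47 named genes called, 31 kept their call in all 6 of these fits. No called named gene changed direction in any alternative.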
